A study of Mus musculus with 6 samples.

Results

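The 10 genes described here encode enzymes of the mitochondrial beta-oxidation spiral, though not all of them, and the flavoproteins that take up its electrons. They were chosen by gene symbol, and all 10 were found among the 27998 genes of the count tables. They are the acyl-CoA dehydrogenases Acadvl, Acadl, Acadm and Acads, the trifunctional protein subunits Hadha and Hadhb, the thiolase Acaa2, the electron transfer flavoprotein (ETF) subunits Etfa and Etfb, and the ETF-ubiquinone oxidoreductase Etfdh. They were measured by droplet-based scRNA-seq of mouse left ventricular cardiomyocytes (CMs) at E16.5, P1 and P5, a span over which CMs leave the cell cycle and become polyploid. All mice were of the strain C57BL/6J with no transgene or treatment named, and cells were methanol-fixed, stained for MYH1 and sorted by Hoechst signal into diploid (2n) and tetraploid (4n) CMs. A sorted 4n cell can be polyploid or a diploid cell that has replicated its DNA. Doublets, in which cells are counted as 1, can also give a 4n signal. They were not called here, and the authors described cell clumps as scarce. Each pair of age and ploidy, named E16.5-2n to P5-4n, was 1 library of cells pooled from several litters, and the age label of E16.5-4n gives day 16.6 where its title gives day 16.5. With 1 library per condition no test between conditions was possible, and age, litter, sort and library cannot be told apart.

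Beta-oxidation shortens fatty acyl-CoA by repeated rounds of dehydrogenation, hydration, a further dehydrogenation and thiolysis. Acyl-CoA dehydrogenases of different chain-length preference carry out the first step and pass electrons to ETF, a heterodimer of an alpha and a beta subunit, from which ETF-ubiquinone oxidoreductase hands them to ubiquinone of the respiratory chain. The heart relies largely on glucose and lactate before birth and mainly on fatty acids afterwards.

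The promoter windows of 5 genes are shown because these genes mark the ends of the measured range and its partners: Acadvl with the largest and Acads with the smallest increase after E16.5, Etfa and Etfb as subunits of 1 heterodimer that changed unequally, and Hadhb, whose window overlaps with that of Hadha. RefSeq windows (GRCm38.p6) of 300 bases, from 250 before to 50 after the start of a gene, were matched by symbol for 9 of the 10 genes, and Acaa2 had no entry. Sequences run 5′ to 3′ along the gene's own strand. Capitals mark matches, on either strand, to any of 6 motifs: AGGTCA, a half-site of nuclear receptors, TNAAGGTCA, its extended form, GCGCNTGCG, the core of the NRF1 motif, the E-box CACGTG, the GC box GGGCGG and CCAAT. The windows lie at chr11:70015379-70015678 on the minus strand for Acadvl, chr5:115119297-115119596 on the minus strand for Acads, chr5:30155003-30155302 on the plus strand for Hadhb, chr9:55512194-55512493 on the minus strand for Etfa and chr7:43443822-43444121 on the plus strand for Etfb.
Acadvl: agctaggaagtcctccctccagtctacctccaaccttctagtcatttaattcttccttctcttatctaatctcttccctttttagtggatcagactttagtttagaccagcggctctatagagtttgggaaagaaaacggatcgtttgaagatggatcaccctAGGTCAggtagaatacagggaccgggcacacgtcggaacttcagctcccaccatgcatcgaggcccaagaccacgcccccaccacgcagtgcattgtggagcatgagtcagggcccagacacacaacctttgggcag
Acads: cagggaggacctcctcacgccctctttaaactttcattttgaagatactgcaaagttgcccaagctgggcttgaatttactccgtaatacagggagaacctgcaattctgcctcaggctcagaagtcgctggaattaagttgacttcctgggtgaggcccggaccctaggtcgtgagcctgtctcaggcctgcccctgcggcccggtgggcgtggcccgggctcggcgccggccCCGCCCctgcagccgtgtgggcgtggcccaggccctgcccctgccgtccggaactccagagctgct
Hadhb: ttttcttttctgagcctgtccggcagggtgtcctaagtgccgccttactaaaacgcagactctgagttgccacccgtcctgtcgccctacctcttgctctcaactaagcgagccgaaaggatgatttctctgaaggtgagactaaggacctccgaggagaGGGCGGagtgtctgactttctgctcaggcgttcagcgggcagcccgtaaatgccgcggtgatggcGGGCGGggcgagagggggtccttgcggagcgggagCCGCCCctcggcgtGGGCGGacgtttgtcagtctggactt
Etfa: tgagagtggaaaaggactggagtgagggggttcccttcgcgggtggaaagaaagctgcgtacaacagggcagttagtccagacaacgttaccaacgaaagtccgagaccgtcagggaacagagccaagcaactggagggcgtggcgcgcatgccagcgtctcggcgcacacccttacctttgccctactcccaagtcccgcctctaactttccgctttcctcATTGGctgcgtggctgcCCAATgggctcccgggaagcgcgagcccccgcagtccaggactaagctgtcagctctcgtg
Etfb: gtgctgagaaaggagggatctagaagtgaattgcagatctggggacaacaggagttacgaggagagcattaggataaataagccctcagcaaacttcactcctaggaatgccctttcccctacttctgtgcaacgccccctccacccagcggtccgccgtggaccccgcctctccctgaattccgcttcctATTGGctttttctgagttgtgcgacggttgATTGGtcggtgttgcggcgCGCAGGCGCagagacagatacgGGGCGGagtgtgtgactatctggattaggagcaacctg

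AGGTCA was found in the windows of 2 of 9 genes, Acadm and Acadvl, and in 16.3% of all 32817 windows. The core of the NRF1 motif was found in those of Acadm, Etfb and Etfdh, and in 6.30% of all. The GC box was found in 6 of 9, those of Acadl, Acads, Hadha, Hadhb, Etfb and Etfdh, and in 35.6% of all. CCAAT was found in 3 of 9, those of Etfa, Etfb and Etfdh, and in 37.4% of all. Neither TNAAGGTCA (1.28% of all windows) nor CACGTG (7.15%) was found in any of the 9. The GC content of the 9 windows was 50.7% (Acadvl) to 70.3% (Acadl), against a median of 52.7% over all windows. Its part in the counts of motifs was not tested. The windows of Hadha and Hadhb shared 228 bases, as their RefSeq starts lie 273 bases apart and the genes run in opposite directions. The only GC box of the Hadha window (-188 to -183) is the same site as that of Hadhb at -90 to -85, so 1 site was counted for both genes. Among the genes that were higher at P1 by 1.5-fold, Acaa2 had no window and could not be searched. Of the others, Acadl, Hadha, Hadhb, Etfb and Etfdh held the GC box and Acadvl did not, and no other motif was held by all of them. A match describes letters in a window, not a bound site.

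UMIs, which count captured molecules, were summed over the CMs of each library and divided by all their UMIs (CPM, scaled to a total of 1000000). CMs were cells with at least 1 UMI of each of Tnni3, Tnnt2, Tnnc1 and Actc1, which were 97.8% to 99.4% of the deposited cells, or 3654 to 7340 CMs per library, with 13070343 to 19665830 UMIs in sum and a median of 1831 (P1-2n) to 4658 (P5-4n) per cell. All 4 CM markers were detected in all 6 libraries, at 25355 to 31849 CPM in sum. CMs that also held at least 2 genes of a fibroblast, endothelial, immune or mural list, counted after thinning each cell to 1000 UMIs, made up 15.2% of E16.5-4n and 17.4% of P1-4n CMs against 1.14% to 5.91% of the other libraries. Erythroid genes summed to 1649 to 10332 CPM, highest in E16.5-4n. UMIs of mitochondrially encoded genes were 8.16% to 8.28% of all at E16.5 and 16.3% to 18.0% later, and pairs of libraries shared 17 to 62 cell barcodes, at most 1.22% of a library. Ranges in parentheses after a value are exact 95% intervals (Poisson for CPM, the binomial split of UMIs for ratios), which cover counting error only and not differences between animals or libraries.

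Together the 10 genes held 4678 CPM (4643 to 4713) in E16.5-2n and 3903 (3869 to 3937) in E16.5-4n. At P1 they held 8459 (8415 to 8503) in 2n and 7097 (7060 to 7135) in 4n CMs, and at P5 7432 (7392 to 7472) and 6999 (6961 to 7038). The sum was thus lowest in both E16.5 libraries, highest in P1-2n, and lower in 4n than in 2n CMs at each age. All 10 genes had their lowest level in E16.5-4n, and 9 of 10 had their highest in P1-2n. The exception was Etfb, which was highest in P5-2n. For Etfb the interval of this level overlapped with that of P5-4n, and for Acads that of P1-2n overlapped with that of P5-2n.

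**Figure D1:**
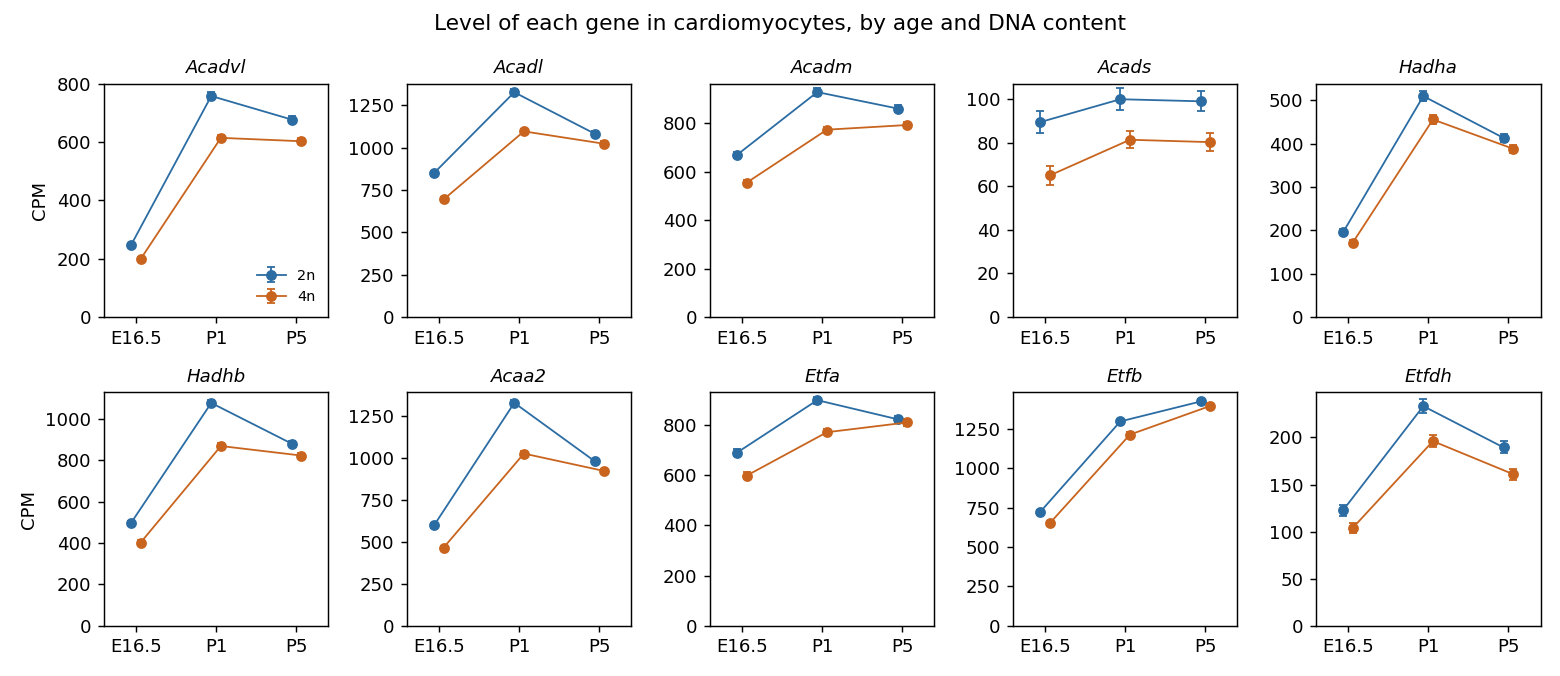
Level of each of the 10 genes in CPM (linear axes from 0) against age, with 2n CMs in blue and 4n CMs in orange. Each point is 1 library and error bars are exact 95% Poisson intervals. All genes were lowest in E16.5-4n, the orange points lie below the blue ones throughout, and in 2n CMs Etfb alone peaks at P5, in 4n CMs Etfb, Etfa and Acadm.

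Among the acyl-CoA dehydrogenases, which open each round, the very long-chain enzyme Acadvl (chromosome 11, 70010183 to 70015411, minus strand, GRCm38) had 246 CPM at E16.5, 758 at P1 and 677 at P5 in 2n CMs, and 198, 614 and 603 CPM at the same ages in 4n CMs. All 4 postnatal libraries lay far above both E16.5 libraries, and the difference among the postnatal ones was small beside that step. From E16.5 to P1 Acadvl was 3.08-fold higher in 2n (2.97 to 3.20) and 3.10-fold in 4n CMs (2.97 to 3.23), more than any other of the 10 genes. These log2 ratios of 1.62 and 1.63 exceeded those of 99.3% and 99.1% of all genes with at least 100 UMIs in both libraries together.

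The long-chain enzyme Acadl (chromosome 1, 66830839 to 66863277, minus strand) had 849, 1326 and 1082 CPM in 2n and 694, 1096 and 1022 CPM in 4n CMs. It was the most abundant acyl-CoA dehydrogenase by UMIs in each library and was 1.56-fold higher at P1 in 2n (1.53 to 1.60) and 1.58-fold in 4n CMs (1.54 to 1.62). The medium-chain enzyme Acadm (chromosome 3, 153922357 to 153944632, minus strand) had 669, 929 and 861 CPM in 2n and 554, 773 and 793 CPM in 4n CMs. Its increase from E16.5 to P1 was 1.39-fold in 2n (1.35 to 1.42) and 1.40-fold in 4n CMs (1.36 to 1.44), below the 1.5-fold used as a threshold here. The short-chain enzyme Acads (chromosome 5, 115110299 to 115119346, minus strand) was the least abundant of the 10 genes, at 89.4, 99.97 and 99.0 CPM in 2n and 65.0, 81.4 and 80.3 CPM in 4n CMs. It was 1.12-fold higher at P1 in 2n (1.04 to 1.20) and 1.25-fold in 4n CMs (1.15 to 1.36), and 3 of its 5 pairs of neighbouring levels had overlapping intervals. The increase at P1 thus followed the order of chain length in both ploidies, from Acadvl through Acadl and Acadm to Acads. With 4 enzymes this order is a description only.

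The balance of the first enzymes by UMIs changed accordingly. In 2n CMs there were 0.290 Acadvl UMIs per Acadl UMI at E16.5 (0.279 to 0.301), 0.571 at P1 (0.559 to 0.584) and 0.626 at P5 (0.612 to 0.640). In 4n CMs there were 0.286 (0.274 to 0.299), 0.561 (0.548 to 0.573) and 0.589 (0.576 to 0.604). Acadl per Acadm varied less, from 1.25 in E16.5-4n to 1.43 in P1-2n. UMIs were counted from 3′ ends and not divided by gene length, and capture can differ between genes, so such ratios are read across libraries and not as molar amounts.

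The trifunctional protein carries the next steps for long-chain acyl-CoA, with the hydratase and dehydrogenase activities on its alpha subunit (Hadha) and the thiolase on its beta subunit (Hadhb). Hadha (chromosome 5, 30118304 to 30155162, minus strand) had 195 CPM at E16.5, 510 at P1 and 413 at P5 in 2n CMs, and 171, 456 and 388 CPM at the same ages in 4n CMs. Hadhb (chromosome 5, 30155248 to 30184593, plus strand) had 497, 1077 and 881 CPM in 2n and 402, 869 and 823 CPM in 4n CMs. Both stood well above their E16.5 levels in all 4 postnatal libraries. From E16.5 to P1 Hadha was 2.61-fold higher in 2n (2.50 to 2.73) and 2.66-fold in 4n CMs (2.54 to 2.79), and Hadhb 2.17-fold (2.11 to 2.23) and 2.16-fold (2.10 to 2.23). Hadha per Hadhb in 2n CMs was 0.393 at E16.5 (0.376 to 0.411), 0.473 at P1 (0.461 to 0.486) and 0.469 at P5 (0.456 to 0.482), and in 4n CMs 0.426 (0.405 to 0.448), 0.524 (0.511 to 0.538) and 0.472 (0.458 to 0.485). From E16.5 to P1 both genes of this divergent pair increased, as did all 10 genes, with a larger increase of Hadha than of Hadhb. Their balance also varied with depth within libraries, where the third of CMs with the most UMIs was compared with that with the fewest. The log2 ratios of Hadha and Hadhb were 0.13 and 0.51 in P1-2n, and -0.04 and 0.30 in P1-4n. Hadha also had the lower ratio in E16.5-2n and P5-4n. It had the slightly higher one in E16.5-4n (0.12 and 0.09) and P5-2n (0.35 and 0.33). The part of depth in the change of balance was not tested.

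Acaa2, the thiolase that closes the spiral for medium-chain intermediates (chromosome 18, 74779197 to 74806208, plus strand), had 597 CPM at E16.5, 1328 at P1 and 981 at P5 in 2n CMs, and 465, 1025 and 922 CPM at the same ages in 4n CMs. None of the intervals of its 6 levels overlapped with that of a neighbour in the order. Acaa2 was 2.22-fold higher at P1 than at E16.5 in 2n (2.17 to 2.28) and 2.20-fold in 4n CMs (2.14 to 2.27).

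The ETF subunits changed unequally. Etfa (chromosome 9, 55454508 to 55512243, minus strand) had 690 CPM at E16.5, 900 at P1 and 824 at P5 in 2n CMs, and 599, 772 and 811 CPM at the same ages in 4n CMs. Etfb (chromosome 7, 43444083 to 43457800, plus strand) had 722, 1298 and 1425 CPM in 2n and 650, 1215 and 1397 CPM in 4n CMs. At E16.5 both subunits were thus close in UMIs, and at P5 Etfb was well above Etfa. From E16.5 to P1 Etfa was 1.30-fold higher in 2n (1.27 to 1.34) and 1.29-fold in 4n CMs (1.25 to 1.33), whereas Etfb was 1.80-fold (1.76 to 1.84) and 1.87-fold higher (1.82 to 1.91). Etfa per Etfb in 2n CMs was 0.956 at E16.5 (0.931 to 0.983), 0.693 at P1 (0.679 to 0.708) and 0.578 at P5 (0.566 to 0.590), and in 4n CMs 0.920 (0.892 to 0.949), 0.635 (0.623 to 0.648) and 0.580 (0.569 to 0.592). It was lower at each later age in both ploidies.

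Etfdh, which passes the electrons on to ubiquinone (chromosome 3, 79603788 to 79629500, minus strand), had 123 CPM at E16.5, 233 at P1 and 189 at P5 in 2n CMs, and 104, 196 and 161 CPM at the same ages in 4n CMs. It was 1.90-fold higher at P1 in 2n (1.80 to 2.01) and 1.89-fold in 4n CMs (1.78 to 2.01), a larger increase than that of Etfa. Etfdh per Etfa was 0.178 and 0.173 in E16.5-2n and E16.5-4n, 0.259 and 0.254 at P1, and 0.230 and 0.199 at P5.

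**Figure D2:**
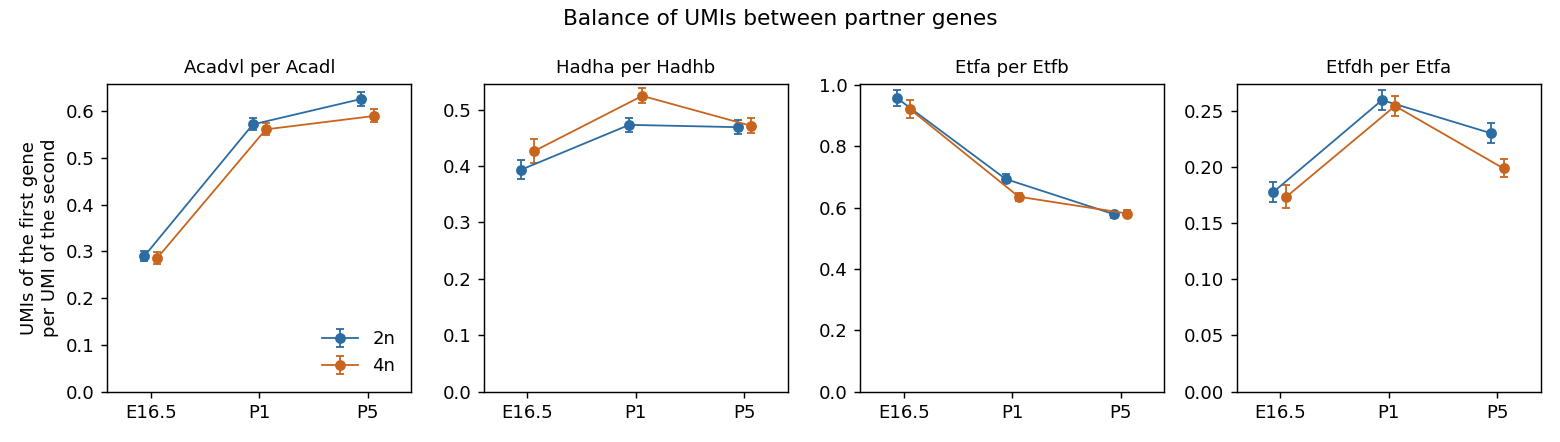
UMIs of the first gene per UMI of the second for 4 pairs of partner genes (linear axes from 0) against age, with 2n CMs in blue and 4n CMs in orange, 1 library per point, and exact 95% intervals of the split of UMIs as error bars. Acadvl per Acadl was about 0.29 at E16.5 and 0.561 to 0.626 later, whereas Etfa per Etfb was lower at each later age.

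Across all members, 7 of 10 were higher at P1 than at E16.5 by at least 1.5-fold in 2n CMs, and 7 of 10 in 4n CMs. The 7 were Acadvl, Hadha, Acaa2, Hadhb, Etfdh, Etfb and Acadl in both, and the other three, Acadm, Etfa and Acads, were higher by less. Of all genes with at least 100 UMIs, 4.81% in 2n (of 9391) and 6.56% in 4n CMs (of 9958) were higher by at least 1.5-fold. No member was lower by at least 1.5-fold, against 31.4% of all genes in 2n and 30.4% in 4n CMs. The median log2 ratio of the members was 0.89 in 2n and 0.91 in 4n CMs, where the median of all genes lay at -0.34 and -0.30. Relative to these shifts the members' medians were 1.22 and 1.21, with 9 and 10 of 10 members past 1.5-fold. With ratios centred in this way 12.3% of all genes were higher and 14.4% lower in 2n, and 14.1% and 15.6% in 4n CMs. The share of mitochondrially encoded UMIs differed between the same libraries (8.28% against 16.3% in 2n and 8.16% against 16.8% in 4n CMs), and its part in the result was not tested. With CMs that held stromal markers or with CMs that held division markers left out, the count stayed at 7 in both ploidies.

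The change from E16.5 to P1 was much alike in 2n and 4n CMs. The difference between the ploidies in this log2 ratio (4n minus 2n) was between -0.02 and 0.05 for 9 of 10 genes, and 0.16 for Acads (0.01 to 0.32). For 8 of 10 genes its interval held 0, the exceptions being Acads and Etfb (0.05, 0.01 to 0.10). With 1 library per condition this compares libraries only.

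**Figure D3:**
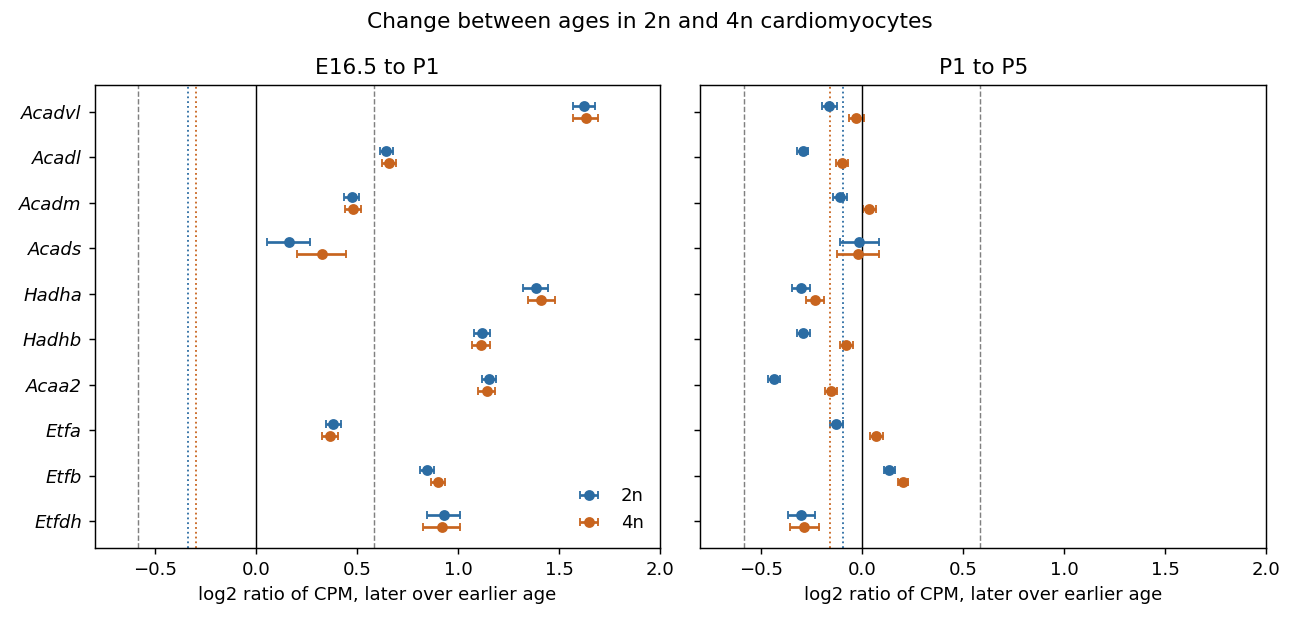
Log2 ratio of CPM between ages for each of the 10 genes, in 2n (blue) and 4n CMs (orange), with E16.5 to P1 on the left and P1 to P5 on the right. Error bars are exact 95% intervals, dotted lines the median of all genes in each ploidy, and dashed lines mark 1.5-fold. All genes lie right of 0 on the left panel, 7 of 10 past 1.5-fold, and none passes 1.5-fold on the right.

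From P1 to P5 no member changed by 1.5-fold in either direction. Over all genes 7.27% were higher and 9.11% lower by that fold in 2n, and 5.14% higher and 16.1% lower in 4n CMs. In 2n CMs 9 of 10 genes were lower at P5 than at P1, with a median log2 ratio of -0.23 (all genes: -0.09) and the lowest value for Acaa2 (-0.44, -0.47 to -0.41). In 4n CMs 7 of 10 were lower, with a median of -0.05 (all genes: -0.16) and the lowest values for Etfdh (-0.28, -0.36 to -0.22) and Hadha (-0.23, -0.28 to -0.19). As both medians of all genes were below 0, most genes were lower too, and these counts alone do not set the members apart. The share of all genes below 0 was not counted. Relative to the medians of all genes, the members' median was -0.13 in 2n and 0.11 in 4n CMs. Of the members counted as lower, Acads in both ploidies and Acadvl in 4n CMs had overlapping intervals at P1 and P5. Etfb was the only member above 0 in both ploidies, with 0.13 in 2n (0.11 to 0.16) and 0.20 in 4n CMs (0.18 to 0.23). When ratios were centred on the median of all genes, the signs of Acadvl, Acadl, Acads, Hadhb and Acaa2 in 4n CMs and that of Acads in 2n CMs turned positive. The log2 ratio from P1 to P5 was higher in 4n than in 2n CMs by 0.28 for Acaa2 (0.24 to 0.32), 0.21 for Hadhb (0.17 to 0.26) and 0.19 for Acadl (0.15 to 0.23), while the intervals of this difference held 0 for Acads and Etfdh.

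Over the whole span from E16.5 to P5, 6 of 10 genes were higher by at least 1.5-fold in each ploidy, namely Acadvl, Hadha, Etfb, Hadhb, Acaa2 and Etfdh. Of all genes 6.55% were higher and 40.3% lower in 2n, and 5.71% higher and 44.5% lower in 4n CMs. No member was lower by that fold. Acadvl was 2.75-fold higher in 2n (2.65 to 2.86) and 3.04-fold in 4n CMs (2.91 to 3.17), and Etfb 1.97-fold (1.93 to 2.02) and 2.15-fold (2.10 to 2.20). The median log2 ratio of the 10 genes was 0.67 in 2n and 0.81 in 4n CMs, against -0.45 and -0.51 for all genes. Centred on these medians, all 10 members were past 1.5-fold, with 17.2% of all genes higher and 15.5% lower in 2n, and 17.4% and 17.1% in 4n CMs.

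At each age all 10 genes were lower in 4n than in 2n CMs, none by 1.5-fold, and the only sign that an alternative turned was that of Etfb at P5 (log2 ratio 0.0046 without CMs that held division markers). The median log2 ratio (4n over 2n) was -0.28 at E16.5, -0.27 at P1 and -0.09 at P5, where the median of all genes was 0.03, 0.05 and 0.02. The share of all genes lower by at least 1.5-fold in 4n CMs was 1.04% at E16.5, 0.29% at P1 and 1.85% at P5, and 9.3%, 9.61% and 3.84% were higher. The largest differences were those of Acads at E16.5 (-0.46, -0.59 to -0.34) and Acaa2 at P1 (-0.37, -0.40 to -0.35), and the smallest that of Etfa at P5 (-0.02, -0.06 to 0.01), whose interval held 0. The difference of Etfdh was alike at each age (-0.24, -0.25 and -0.24), and that of Acads was -0.46 at E16.5 and -0.30 at P1 and P5. Those of Acaa2, Acadl and Hadhb were between -0.37 and -0.28 at E16.5 and P1 and between -0.10 and -0.08 at P5.

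The lower level in 4n CMs was not limited to these genes. All 20 genes of a general mitochondrial list, without a step in fatty acid oxidation, were lower in 4n CMs at E16.5 and at P1, and 13 of 20 at P5, with medians of -0.21, -0.14 and -0.02. The summed list had log2 ratios of -0.20, -0.23 and -0.11 at these ages, and the summed 10 genes -0.26, -0.25 and -0.09. The 6 fibroblast genes, all detected in each library, summed to 126 to 243 CPM in 2n and 334 to 886 CPM in 4n libraries, and the 6 endothelial genes to 26.0 to 59.0 and 61.6 to 115 CPM. At P5 the endothelial sums were close, at 59.0 in 2n and 61.6 in 4n CMs. Mural genes were higher in 4n CMs at each age. Immune genes were higher in 4n CMs at E16.5 and P1 but lower at P5 (10.2 CPM in 2n and 8.31 in 4n). The same held for erythroid genes (2242 and 1649 CPM at P5). CMs with stromal markers were more frequent in 4n libraries at each age. Within each library the 10 genes made up a lower share of their UMIs (log2 ratio of the summed CPM between -0.46 and -0.23). Without CMs that held stromal markers the medians of the members in 4n over 2n CMs were -0.25, -0.25 and -0.09. CMs with at least 3 of 20 division markers were also more frequent in 4n CMs (42.2% against 9.14% at E16.5, 4.99% against 1.08% at P1 and 23.8% against 2.89% at P5), and without them the medians were -0.26, -0.27 and -0.08. The classes were left out one at a time.

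**Figure D4:**
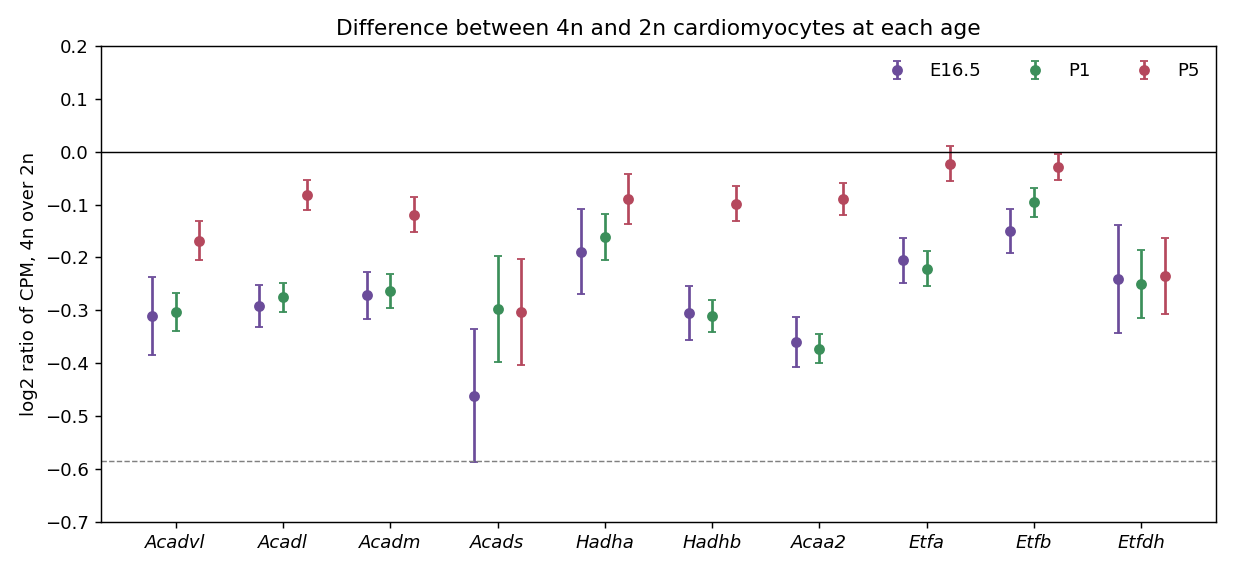
Log2 ratio of CPM in 4n over 2n CMs for each of the 10 genes at E16.5 (purple), P1 (green) and P5 (red), with exact 95% intervals, 1 library per condition. The dashed line marks 1.5-fold lower. All points lie below 0 and above the dashed line, and those of P5 lie nearest 0 except for Acads.

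Within libraries the 10 genes were compared between CMs with and without division markers. In sum they were lower in CMs with division markers in all 6 libraries, by a log2 ratio between -0.17 (E16.5-2n, 4214 against 4735 CPM) and -0.06 (E16.5-4n, 3815 against 3973). The general mitochondrial list was lower as well, by -0.21 to -0.05. The members did not move as 1 block in the 4n libraries. Acads was lower in CMs with division markers, by -0.35 in E16.5-4n (-0.56 to -0.15), -0.73 in P1-4n (-1.14 to -0.35) and -0.34 in P5-4n (-0.53 to -0.16), and Acadvl by -0.31, -0.14 and -0.15. Etfa was higher in the same cells, by 0.11 in E16.5-4n (0.04 to 0.17), 0.11 in P1-4n (0.01 to 0.20) and 0.09 in P5-4n (0.04 to 0.14). It was not higher in the 2n libraries (-0.02, -0.17 and -0.11), where each interval held 0. With a minimum of 5 markers its interval also held 0 in E16.5-4n (-0.0008 to 0.14) and P5-4n (-0.02 to 0.13). With a minimum of 2 it held 0 in P1-4n (-0.002 to 0.16). The ratios of Etfa in the 4n libraries stayed above 0 at both minimums. CMs with division markers had higher median UMIs in each library, and the part of this in the result was not tested.

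The state of maturation was read from the share of Myh6, the adult myosin heavy chain of the mouse ventricle, in the UMIs of Myh6 and Myh7. Among CMs with at least 5 such UMIs, the third with the highest share was compared with the third with the lowest. The summed CPM of the 10 genes was higher in the former in P1-2n (9099 against 7944 CPM, log2 ratio 0.20, 0.17 to 0.22) and P1-4n (7470 against 6725 CPM, 0.15, 0.13 to 0.17). The general mitochondrial list was higher in the same CMs as well, by 0.16 (0.14 to 0.17) and 0.11 (0.09 to 0.12). In these libraries 1597 and 1429 CMs lay within 5 percentage points of a cut. In the other libraries the ratio was between -0.03 and 0.06, where many CMs tied at a cut, which lay at a Myh6 share of 0% at E16.5 and of 100% at P5. The third of CMs with the most UMIs also held a higher share of the 10 genes than the third with the fewest, by 0.05 in E16.5-4n to 0.30 in P5-2n, and the general mitochondrial list by 0.06 to 0.30. CMs with a high Myh6 share were deeper at P1 (median 2534 against 1898 UMIs in P1-2n and 3907 against 2934 in P1-4n), and the part of depth was not tested. These differences of the sum within libraries were smaller than that between E16.5 and P1, at 0.85 in 2n and 0.86 in 4n CMs.

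Other genes of the pathway showed a mixed pattern. Of 15 other genes of mitochondrial beta-oxidation and its auxiliary steps, 14 had at least 100 UMIs, and 3 were higher and 1 lower by 1.5-fold at P1 in 2n CMs, and 4 higher and 2 lower in 4n CMs. Of all genes 4.81% were higher and 31.4% lower by that fold in 2n, and 6.56% and 30.4% in 4n CMs. The median log2 ratio of the 14 genes was 0.15 in 2n and 0.35 in 4n CMs. Decr1, the reductase needed for polyunsaturated fatty acids, was higher from 95.5 to 313 CPM in 2n (log2 ratio 1.71, 1.63 to 1.80) and from 75.5 to 262 CPM in 4n CMs (1.80, 1.70 to 1.90), and Eci2, an enoyl-CoA isomerase, by 0.96 and 0.94. Echs1, the short-chain enoyl-CoA hydratase of the spiral, had 418 CPM at E16.5 and 395 CPM at P1 in 2n CMs (log2 ratio -0.08, -0.13 to -0.03). Hadh, the hydroxyacyl-CoA dehydrogenase for shorter chains, was at 0.42 and 0.54. Pcca, a subunit of propionyl-CoA carboxylase, was at -0.78 and -0.80.

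Of 8 other dehydrogenases that feed ETF, which serve amino acid and 1-carbon breakdown, 7 could be compared. None was higher by 1.5-fold at P1 in either ploidy and 2 were lower, Gcdh (-0.91 in 2n and -0.89 in 4n CMs), which acts on glutaryl-CoA, and Ivd (-0.62 and -0.67), which acts on isovaleryl-CoA. As 31.4% of all genes in 2n and 30.4% in 4n CMs were lower by that fold, 2 of 7 is close to the share of all genes. The median of the 7 was -0.17 in 2n and -0.11 in 4n CMs. Of 12 genes of peroxisomal beta-oxidation 8 could be compared, of which 1 was higher in each ploidy, with medians of 0.15 and 0.24. Of the 20 general mitochondrial genes 2 were higher in each ploidy, and 1 was lower in 2n and 2 in 4n CMs, with medians of -0.15 and -0.07. The summed level of these 20 genes was nonetheless higher at P1, by a log2 ratio of 0.30 in 2n (0.29 to 0.31) and 0.27 in 4n CMs (0.26 to 0.28). The medians of these lists lay between that of the 10 genes and that of all genes.

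**Figure D5:**
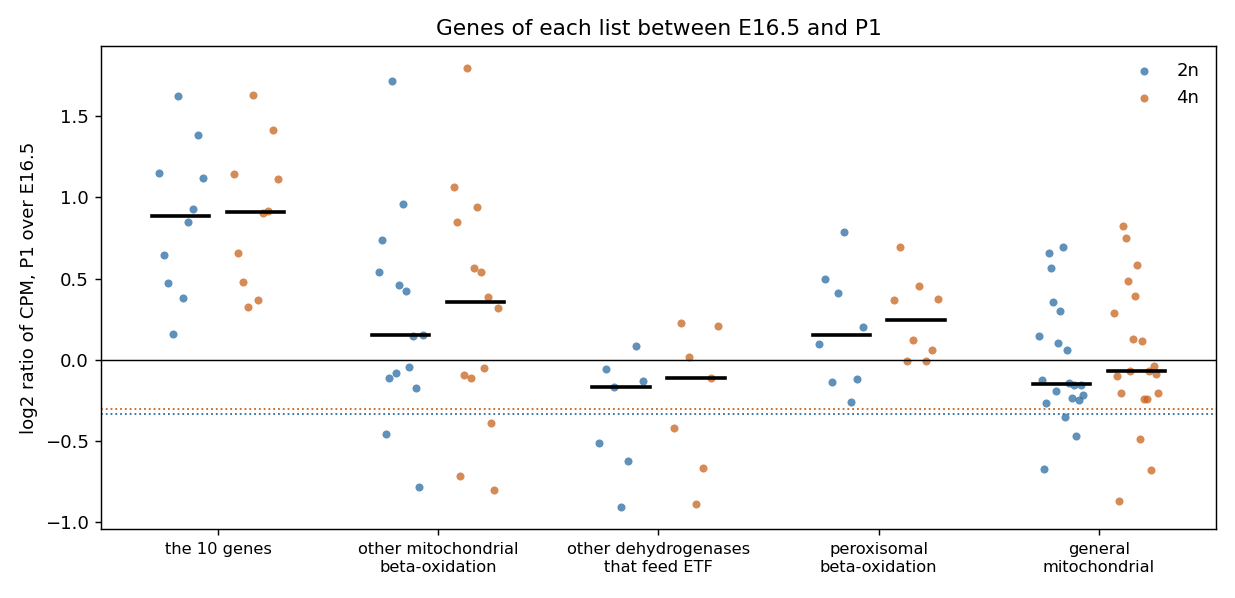
Log2 ratio of CPM at P1 over E16.5 for the genes of 5 lists with at least 100 UMIs, in 2n (blue) and 4n CMs (orange), 1 point per gene. Black bars are the medians of the lists and dotted lines those of all genes. The bars of the 10 genes lie at 0.89 and 0.91 and those of the other lists between -0.17 and 0.35.

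Likeness among the 10 genes was described by the correlation of log2 CPM across the 6 libraries, which share ages, ploidies and depth. Hadhb had the highest Pearson r with the mean of the other 9 (0.999), 9 of 10 genes were at 0.933 or above, and Acads was at 0.708. A further comparison used the mean of 9 members only, as Acads, at 85.8 CPM on average, fell below its minimum of 100 CPM. Among 1194 other genes above that minimum, the 5 most alike to this mean were Hsdl2 (r = 0.999), Fuca2 (0.996), Fitm1 (0.994), Ech1 (0.987) and Hint2 (0.984). Ech1 encodes a dienoyl-CoA isomerase of fatty acid oxidation, Fitm1 a protein of lipid droplet formation and Fuca2 a fucosidase. Ech1 had 272 and 214 CPM in E16.5-2n and E16.5-4n, 991 and 858 at P1, and 874 and 857 at P5. With 1 library left out at a time, the r of these 5 genes stayed at 0.975 or above. Their lowest ranks were then 2 for Hsdl2, 6 for Fuca2, 4 for Fitm1, 10 for Ech1 and 43 for Hint2. Over 6 libraries such values are a description only.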

How the data were processed

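The data are 6 libraries of droplet-based scRNA-seq (Chromium Single Cell 3′ v2). The authors counted reads with Cell Ranger, which aligned them with STAR to GRCm38 (mm10), and the tables they deposited hold raw UMI counts of the called cells, which had not been normalized. The version of Cell Ranger is not given in the sources used here. A deposited table of the authors' own comparison of genes between E16.5 and P5 and a list of background genes were not used.

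CMs were cells with at least 1 UMI of each of 4 markers. UMIs were summed over CMs and given as CPM, and log2 ratios were computed without pseudocount. With 1 library per condition no test was made. A gene counted as past the fold at a CPM ratio of 1.5 in either direction, with at least 100 UMIs in both libraries together, and all genes were tested alike. The functions were tested on simulated counts. Each result was recomputed with other scalings, thinning, filters on cells and genes and a fold of 2. Doublets were not called, and CMs with stromal markers were left out in 1 alternative. CMs under 1000 UMIs (0 to 700 per library) could not be thinned and were left out of the division and stromal classes. The genes named are the 10 members, genes of the lists and the 5 most alike genes. The members and lists were chosen with earlier results of these data known, and the minimum of 5 Myh6 and Myh7 UMIs after the values were seen. Positions are from GENCODE vM21, and promoter windows from RefSeq. Python 3.11.15, NumPy 2.4.6, SciPy 1.17.1, pandas 2.3.3 and matplotlib 3.10.9 were used.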

Additional observations from a re-analysis of the deposited data

Results flagged for a closer look

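From P1 to P5 the log2 ratios of 2 genes had opposite signs in 2n and 4n CMs. Etfa was at -0.13 in 2n and 0.07 in 4n CMs, a difference of 0.199 (0.152 to 0.245, counting error only). Acadm was at -0.11 in 2n and 0.04 in 4n CMs, a difference of 0.145 (0.099 to 0.191). With 1 library per condition neither difference was tested. With each CM thinned to 1000 UMIs, the ratio of Etfa in 4n CMs was -0.02, so that its signs no longer differed.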

How the results depend on the processing

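No paired analysis was possible because each condition is 1 library, and no library could be left out of a comparison between conditions. The count of members higher by 1.5-fold from E16.5 to P5 moved from 6 to 10 in 2n CMs with median-of-ratios scaling and with centring on the median of all genes, and from 6 to 10 in 4n CMs with these and when the total omitted the 50 genes with most UMIs. At 2-fold it was 2 from E16.5 to P5 in 2n, and 4 from E16.5 to P1 in both 2n and 4n CMs. The other 190 counts under alternatives stayed within 1.5 times the reported ones. Most of these were counts of 0 that stayed at 0, to which this limit does not apply. The counts that moved were all of members higher from E16.5 to P1 or P5, the only reported counts above 0. Signs of the members' log2 ratios were kept in 100 of 100 values from E16.5 to P1 in each ploidy and in 86 of 100 from P1 to P5 in 4n CMs, and the ratio of Acads from E16.5 to P5 in 2n CMs was -0.04 after thinning. Median-of-ratios scaling changed the split of all genes from 4.81% higher and 31.4% lower to 12.6% and 14.0% from E16.5 to P1 in 2n CMs. At 5 division markers in place of 3, the summed ratio of the members in P1-2n (14 CMs) and P5-2n (30 CMs) had intervals that held 0. Depth limited Acads most, the least abundant gene, whose log2 ratio from E16.5 to P1 in 4n CMs had an interval of 0.20 to 0.45.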
